A study of Mus musculus with 3 samples.

Results

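Prostaglandins are lipid mediators made from arachidonic acid, and 9 genes of their synthesis, breakdown and sensing were followed here by symbol through every cell class of mouse skin. The genes were Ptgs1, Ptgs2, Ptges, Ptges3, Ptgis, Ptgds, Hpgd, Ptger2 and Ptger4, and all 9 were found among the 26989 genes listed in the deposited tables. The tables held 3 single-cell libraries of whole dissociated skin from C57BL/6 mice aged 9 weeks, 1 library per group. The UV library came from irradiated mice given saline, the UV_VD library from irradiated mice given VD, which the series title lets one take to be vitamin D, and the control library from mice that were not irradiated and were given saline. The number of mice behind each library, the UV dose, the dose and route of VD, and the time of sampling were not given in the sources used here. With 1 library per group no difference between groups could be tested, so every ratio below compares libraries and not conditions, and every interval covers counting error only.

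Cyclooxygenases, encoded by Ptgs1 and Ptgs2, convert arachidonic acid released from membranes into the unstable intermediate prostaglandin H2. Ptgs1 is known as the constitutive form and Ptgs2 as the inducible form, and terminal synthases then make prostaglandin E2, D2 or prostacyclin from the shared intermediate. In skin, prostaglandin E2 is known to act on local cells through receptors that include those encoded by Ptger2 and Ptger4, and 15-hydroxyprostaglandin dehydrogenase, encoded by Hpgd, starts its breakdown.

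The promoter sequences of the cyclooxygenase pair are shown because the 2 genes, which perform the same reaction, had their highest levels in different cells of this skin. Each window holds the 250 bases before the gene start, from RefSeq on GRCm38.p6, on the plus strand: chr2:36230176-36230425 for Ptgs1 and chr1:150099781-150100030 for Ptgs2. Capitals mark a match to the GC box GGGCGG.
Ptgs1: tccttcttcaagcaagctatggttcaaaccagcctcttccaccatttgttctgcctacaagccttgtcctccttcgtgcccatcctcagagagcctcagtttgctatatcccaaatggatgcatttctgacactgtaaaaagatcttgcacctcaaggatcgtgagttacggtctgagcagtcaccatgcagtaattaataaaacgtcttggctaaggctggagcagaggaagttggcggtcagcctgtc
Ptgs2: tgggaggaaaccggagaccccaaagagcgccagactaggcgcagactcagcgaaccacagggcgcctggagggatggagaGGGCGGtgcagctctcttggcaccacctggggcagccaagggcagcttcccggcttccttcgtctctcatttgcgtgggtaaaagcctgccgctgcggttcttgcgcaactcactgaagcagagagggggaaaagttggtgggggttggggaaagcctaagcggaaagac
A set of 6 motifs was searched on both strands in 32851 windows of that length: the TATA box TATAA (in 22.8% of all windows), the cAMP response element core ACGTCA (6.47%), the E-box CACGTG (6.02%), the AP-1 site TGANTCA (6.75%), the GC box (32.7%) and an NF-kB site of GGGA and CC separated by 4 arbitrary bases (17.6%). The Ptgs2 window held 1 GC box, which began 170 bases before the start, and the Ptgs1 window held none of the 6 motifs. In the GRCm38 annotation Ptgs1 spans chr2:36230426-36252272 and Ptgs2 spans chr1:150100031-150108227. A match describes letters in this window and an absent match says only that these letters are not in it.

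After filters the UV, UV_VD and control libraries held 5451, 6199 and 9078 cells, with 50610389, 69126823 and 79450666 counts and medians of 7566, 9301 and 6822.5 counts per cell. The labelled tissue was checked against marker genes: clusters with keratinocyte, fibroblast, myeloid, lymphocyte, Langerhans cell and sebocyte markers were found in all 3 libraries, and each class name below stands for cells like that type. Hair matrix cells (292) and melanocytes (47) came from the UV library alone. Cells of different libraries shared 37 to 66 barcodes per pair. Levels are given as CPM, the counts of the gene scaled by all counts of the same class and library. A gene was called higher or lower between 2 libraries where at least 20 counts stood in the higher one, the CPM ratio was past 1.5-fold and its exact 95% interval lay wholly on 1 side of 1. Only classes with at least 50 cells in both libraries were compared.

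**Figure D1:**
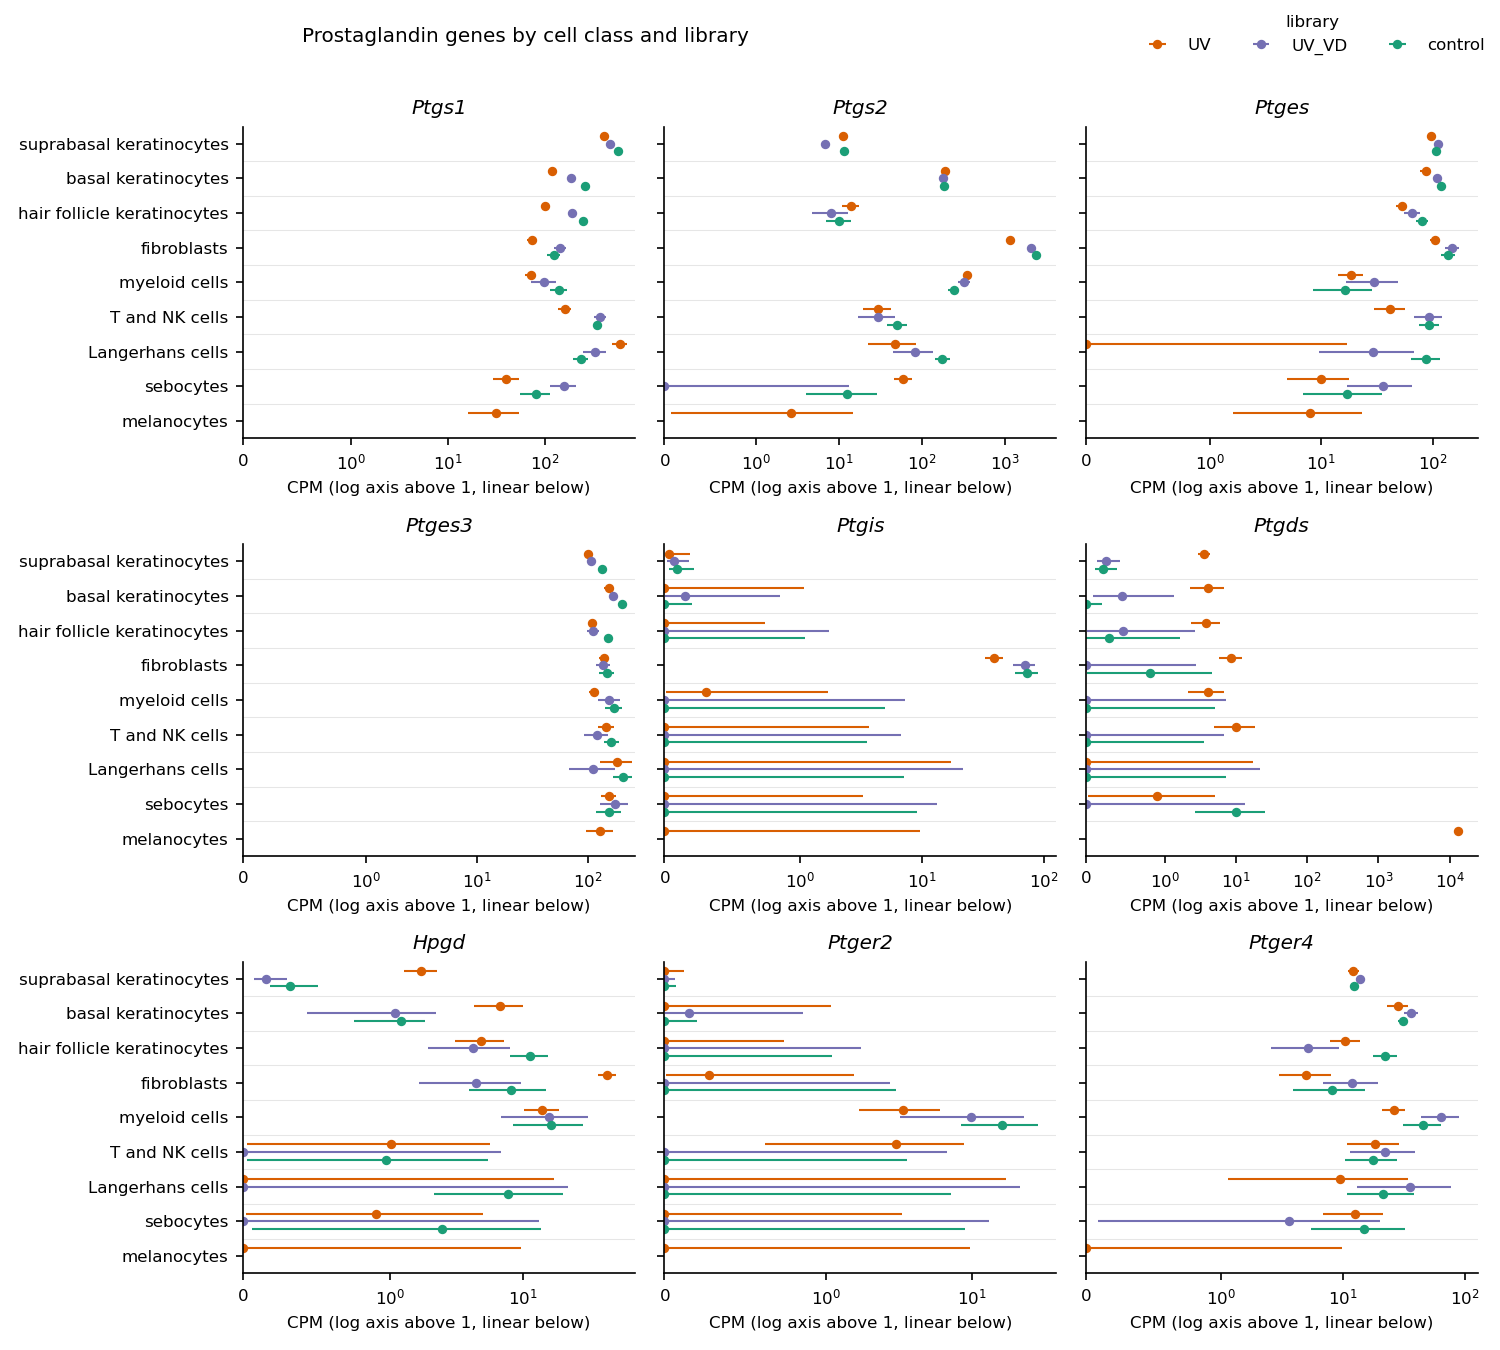
Levels of the 9 genes by cell class (rows) in the UV (orange), UV_VD (purple) and control (green) libraries. Points are CPM on an axis that is logarithmic above 1 and linear below, and bars are exact 95% Poisson intervals that cover counting error only. Ptgs1 was highest in suprabasal keratinocytes of the UV_VD and control libraries among the classes compared, at 475 and 571 CPM, Ptgs2 in fibroblasts and Ptgds in the UV melanocytes.

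Ptgs1 was a gene of the differentiated epidermis in all 3 libraries. Suprabasal keratinocytes, the layers above the dividing basal cells, held 86.4%, 92.6% and 82.7% of all Ptgs1 counts of the UV, UV_VD and control libraries. Of the counts of all genes they held 29994830 of 50610389 in UV, 57533661 of 69126823 in UV_VD and 53804491 of 79450666 in control. The level in these cells was 408 CPM in the UV library, 475 CPM in the UV_VD library and 571 CPM in the control library. A Ptgs1 count was found in 86.6%, 87.3% and 90.6% of suprabasal cells at medians of 12102, 11303 and 10134 counts per cell. When each cell was thinned to 2500 counts, the shares were 55.6%, 60.3% and 66.8%. In fibroblasts, at medians of 6583, 5260 and 4823 counts per cell, the unthinned shares were 19.2%, 26.2% and 22.8%. Thus most suprabasal cells carried the transcript, and the UV library had the lowest share and the lowest level in that class.

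The other classes had lower Ptgs1 levels in the control library. The order there was suprabasal keratinocytes, T and NK cells (350 CPM), basal keratinocytes (262 CPM), hair follicle keratinocytes (249 CPM), Langerhans cells (237 CPM), myeloid cells (140 CPM), fibroblasts (124 CPM) and sebocytes (81.0 CPM). The neighbours from basal keratinocytes to Langerhans cells had overlapping intervals, as did myeloid cells and fibroblasts. In the UV library the 43 Langerhans cells had the highest Ptgs1 level of any class at 597 CPM (interval 498 to 710), against 329 CPM in 22 UV_VD cells and 237 CPM in 57 control cells. Langerhans cells, the antigen-presenting cells of the epidermis, were too few for a comparison.

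Ptgs1 was lower in the UV library than in control in most classes. Basal keratinocytes had 119 CPM in UV and 262 CPM in control (ratio 0.453, interval 0.408 to 0.501). A basal cluster led by Il33 held 118 of 594 basal cells in UV and 1933 of 3168 in control, and had no Ptgs1 call. A basal cluster led by Krt14 had a call as lower. The part of this mix in the basal ratio was not tested. Hair follicle keratinocytes had 101 CPM in UV and 249 CPM in control (ratio 0.406, interval 0.363 to 0.454). Fibroblasts had 74.0 CPM in UV and 124 CPM in control (0.597), and myeloid cells 72.4 CPM in UV and 140 CPM in control (0.518). These classes passed the call rule, whereas the suprabasal ratio of 0.715 (interval 0.700 to 0.730) lay in the same direction without reaching 1.5-fold. The suprabasal class in the UV library included 593 cells of a cluster led by BC100530 and Krt6b. Its 10 leading genes held 1 follicle marker and no suprabasal marker, and most other suprabasal clusters held no suprabasal marker there either. Its mean log2 fold for the suprabasal markers, 0.62, was the highest of the class. Without this cluster suprabasal Ptgs1 was 443 CPM in UV and 571 CPM in control (0.776). Within single clusters the difference was of that size too, with 582 CPM in UV and 735 CPM in control in cells led by Adh6a, and 525 CPM in UV and 677 CPM in control in cells led by Alox12e.

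In the UV_VD library the Ptgs1 level lay above that of the UV library in each of these classes. Basal keratinocytes had 188 CPM in UV_VD and 119 CPM in UV (ratio 1.58, interval 1.41 to 1.77). The Il33-led cluster was 414 of 1016 basal cells in UV_VD and 118 of 594 in UV, and had no Ptgs1 call. The Krt14-led cluster had a call as higher in UV_VD. Hair follicle keratinocytes had 192 CPM in UV_VD and 101 CPM in UV (1.90, interval 1.66 to 2.16). Fibroblasts had 145 CPM in UV_VD and 74.0 CPM in UV (1.96). T and NK cells had 374 CPM in UV_VD and 162 CPM in UV (2.31), against 350 CPM in control. These UV_VD ratios and the UV ratios share the UV library. The summed level of 10 suprabasal marker genes, all above 0 in T and NK cells, was 25759, 46639 and 33594 CPM in the UV, UV_VD and control libraries, and in fibroblasts 8752, 15375 and 12571 CPM. These values lie in the same order as Ptgs1 in both classes, and their part in the Ptgs1 result there was not tested. The clusters that made up the T and NK class also differed, since 136 of 171 UV cells and 10 of 131 control cells lay in the cluster with alpha-beta T cell markers.

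Over all cells the Ptgs1 level was 280 CPM in UV, 427 CPM in UV_VD and 467 CPM in control, with a UV to control ratio of 0.599. With the classes of the UV library weighted to their shares in control the ratio was 0.676, and the call was lost. As a description over 23 class and library profiles of at least 50 cells, the genes with the pattern most like that of Ptgs1 were Cyp2j6, Ndfip2 and BC064078 (Pearson r of log2 levels 0.95, 0.92 and 0.92).

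Ptgs2 was concentrated in a small group of fibroblasts. A cluster led by Pi16, with Cxcl1, Ccl2 and Il6, which encode inflammatory mediators, also among its leading genes, held 187, 148 and 152 cells of the UV, UV_VD and control libraries. These cells were 3.43%, 2.39% and 1.67% of all cells and held 56.3%, 58.2% and 37.3% of all Ptgs2 counts. Their level was 2938 CPM in UV (interval 2844 to 3035), 3039 CPM in UV_VD (2925 to 3156) and 3295 CPM in control (3173 to 3420). The 3 levels lay within 1.5-fold of each other, and neither irradiated library passed the call rule against control (ratios 0.892 for UV and 0.922 for UV_VD).

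Nearly every cell of the Pi16-led cluster contributed. A Ptgs2 count was found in 95.2%, 92.6% and 95.4% of them at medians of 6122, 4950 and 4510 counts per cell, and in 91.4%, 87.8% and 94.1% after thinning. Hair follicle keratinocytes, at medians of 5773, 6008 and 5523 counts per cell, had a count in 5.36%, 3.33% and 4.10% of cells. The median cell of the Pi16-led cluster had 2719 CPM in UV (quartiles 1422 and 4339), 2467 CPM in UV_VD (850 and 5292) and 2963 CPM in control (1594 and 5354). Ptgs2 was among the genes used for clustering. With all 9 genes left out of the clustering, an alternative chosen after seeing the data, a Pi16-led cluster of 186, 148 and 152 cells formed again, and it had 2947, 3039 and 3343 CPM of Ptgs2.

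**Figure D2:**
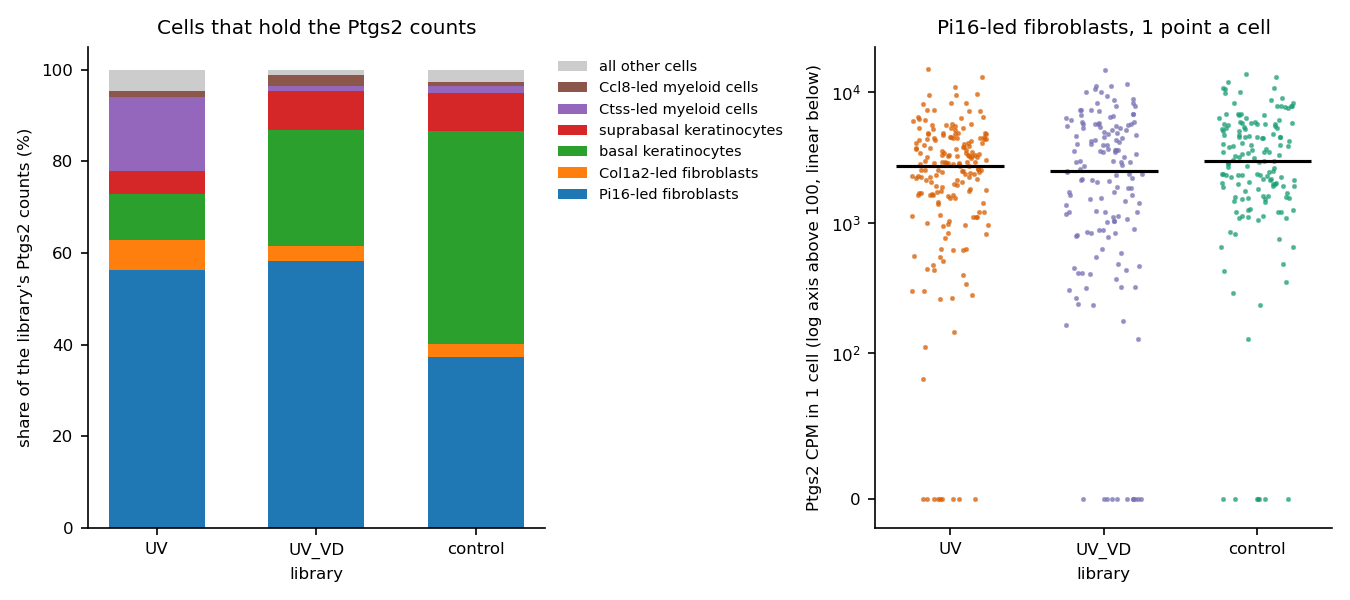
Left, the share of each library's Ptgs2 counts (percent) held by 6 groups of cells and by all others. Right, Ptgs2 in single cells of the Pi16-led fibroblast cluster (CPM, logarithmic above 100 and linear below, 1 point per cell, black line at the median). The cluster held 56.3% of the counts in UV, 58.2% in UV_VD and 37.3% in control, while its medians were 2719, 2467 and 2963 CPM.

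The fibroblast class as a whole had unequal Ptgs2 levels in the 3 libraries, and its clusters were present in different shares. Fibroblasts had 1149 CPM of Ptgs2 in UV and 2416 CPM in control (ratio 0.476, interval 0.454 to 0.499). They had 2098 CPM in UV_VD and 1149 CPM in UV (ratio 1.83, interval 1.74 to 1.92). The Pi16-led cluster made up 39.0% of fibroblasts in UV, 70.5% in UV_VD and 70.7% in control. A cluster led by Col1a2 and Col1a1, genes of the fibrillar collagen of the dermis, made up 40.8% in UV, 21.9% in UV_VD and 24.2% in control. With the clusters weighted to their shares in control, Ptgs2 was 2086 CPM in UV and 2416 CPM in control (0.863), and 2185 CPM in UV_VD and 2086 CPM in UV (1.05), and neither difference passed the call rule. In the Col1a2-led cells alone Ptgs2 was 321, 439 and 641 CPM in the UV, UV_VD and control libraries, and 48.6% of the 210 control counts came from 1 cell.

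In the control library all fibroblasts held 40.2% of Ptgs2 counts, and the largest share, 46.5%, lay in basal keratinocytes. They held 655 of 6536 Ptgs2 counts in UV, 1164 of 4584 in UV_VD and 3430 of 7370 in control. Their level was 191 CPM in UV, 179 CPM in UV_VD and 187 CPM in control, with a UV to control ratio of 1.02 (interval 0.936 to 1.11). This ratio depended on how the class was drawn: its log2 value of 0.03 became -0.46 with each cell assigned on its own and -0.70, a call as lower, at the coarser clustering resolution of 0.5. Inside the class the clusters differed. Basal cells led by Il33, the gene of an alarm cytokine, had 191 CPM in UV and 102 CPM in control (ratio 1.87, interval 1.55 to 2.24), and 87.2 CPM in UV_VD. Basal cells led by Krt14 and Krt5 had 255 CPM in UV, 252 CPM in UV_VD and 362 CPM in control. Cycling basal cells led by Hist1h1b had 169 CPM in UV, 250 CPM in UV_VD and 303 CPM in control. The Il33-led cluster held 118 of 594 basal cells in UV and 1933 of 3168 in control.

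In all keratinocytes Ptgs2 was 27.5 CPM in UV, 23.7 CPM in UV_VD and 54.1 CPM in control. The UV to control ratio was 0.508 (interval 0.475 to 0.544). Basal cells were 16.5% of keratinocytes in UV, 17.6% in UV_VD and 37.4% in control. With basal, suprabasal and follicle subclasses weighted to control, Ptgs2 was 54.8 CPM in UV, 48.5 CPM in UV_VD and 54.1 CPM in control. Suprabasal cells had 11.0 CPM in UV, 6.67 CPM in UV_VD and 11.4 CPM in control, and passed the call rule as lower in UV_VD than in UV (0.605) and than in control (0.583). The clusters of this class did not share 1 direction. In the Alox12e-led cells Ptgs2 was 7.23 CPM in UV_VD and 3.63 CPM in UV (109 and 17 counts, ratio 1.99), a call as higher, and the UV level was a call as lower against 7.12 CPM in control (0.510). Only 7.25%, 5.44% and 7.26% of suprabasal cells had a Ptgs2 count. Among suprabasal cells with Ptgs1, 7.43%, 5.79% and 7.50% also had Ptgs2.

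Myeloid cells were a source of Ptgs2 mostly in the UV library. A cluster led by Ctss, H2-Aa, Cd74 and Il1b, genes of antigen processing, antigen presentation and inflammation, held 456 UV, 14 UV_VD and 20 control cells, with 447, 527 and 671 CPM. It held 16.1% of all Ptgs2 counts in UV, 1.16% in UV_VD and 1.36% in control, and its levels were not compared because of the few cells. Macrophages led by Ccl8 and Retnla had 96.9 CPM in UV, 273 CPM in UV_VD and 133 CPM in control. The UV_VD level passed the call rule against UV (ratio 2.82, interval 2.11 to 3.78), and 24.3% of the 111 UV_VD counts came from 1 cell. The 77 endothelial cells of the UV library had 165 CPM.

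Over all cells Ptgs2 stood at 129 CPM in UV, 66.3 CPM in UV_VD and 92.8 CPM in control. The UV to control ratio of 1.39 did not reach 1.5-fold, and the UV_VD to UV ratio of 0.513 did. With classes weighted to their shares in control, the levels were 74.1 CPM in UV, 82.4 CPM in UV_VD and 92.8 CPM in control. The direction over all cells was reversed in both comparisons under this weighting (ratios 0.799 and 1.11), but neither passed the call rule. The weighting left the fibroblast clusters in unequal shares. With those clusters weighted the ratios within fibroblasts were 0.863 and 1.05, as given above. Serpinb6a, Rnase4 and Man1a had the patterns most like that of Ptgs2 over the 23 profiles (r 0.94, 0.91 and 0.91).

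**Figure D3:**
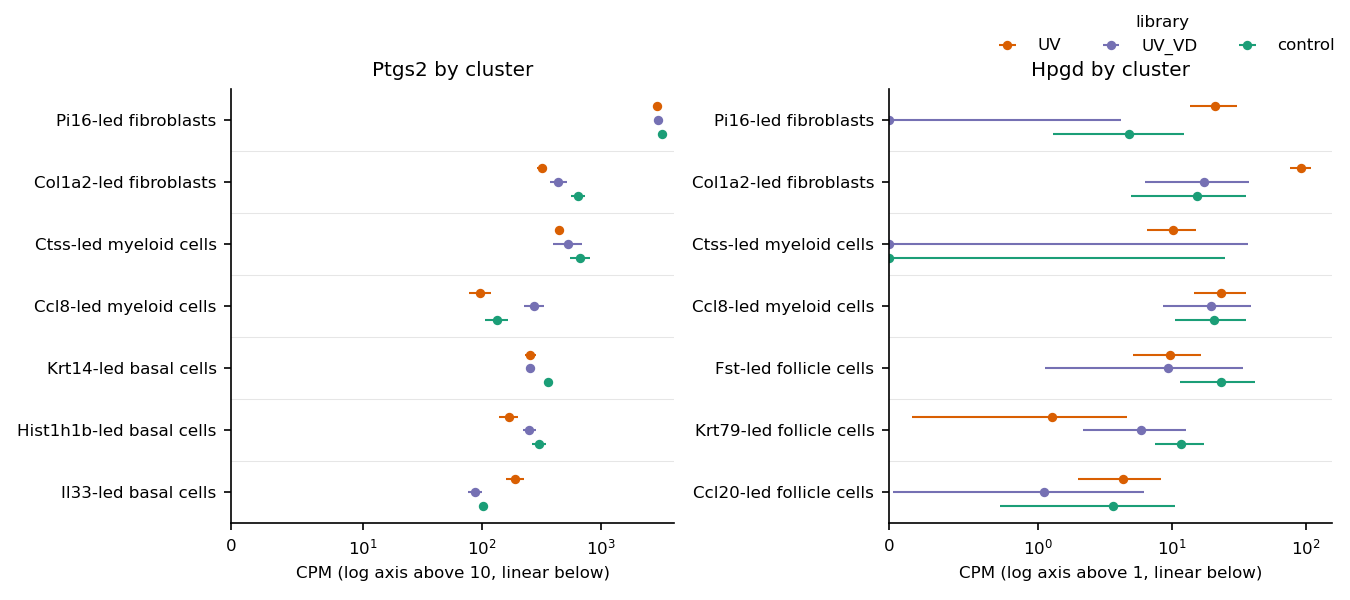
Ptgs2 (left) and Hpgd (right) in single clusters of the UV (orange), UV_VD (purple) and control (green) libraries. Points are CPM on axes that are logarithmic above 10 (Ptgs2) or 1 (Hpgd) and linear below, and bars are exact 95% Poisson intervals. Ptgs2 in the Pi16-led cells was 2938, 3039 and 3295 CPM, while Hpgd in the Col1a2-led cells was 91.0 CPM in UV, 17.2 CPM in UV_VD and 15.3 CPM in control.

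Ptges encodes microsomal prostaglandin E synthase 1, the inducible enzyme that makes prostaglandin E2. Suprabasal keratinocytes held 72.3% of its counts in UV, 85.0% in UV_VD and 67.6% in control, but its CPM level in them lay within 1.5-fold of that in basal keratinocytes and in fibroblasts. Suprabasal keratinocytes had 96.0 CPM in UV, 112 CPM in UV_VD and 107 CPM in control. Basal keratinocytes had 86.9 CPM in UV, 109 CPM in UV_VD and 118 CPM in control. Fibroblasts had 105 CPM in UV, 150 CPM in UV_VD and 138 CPM in control, with the Col1a2-led cells at 137, 250 and 195 CPM. Myeloid cells were lower, at 18.5 CPM in UV, 29.6 CPM in UV_VD and 16.3 CPM in control. UV had the lowest Ptges level in keratinocytes and fibroblasts, but neither class passed the call rule (UV to control ratios 0.823 and 0.760).

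Calls for Ptges were found in the follicle and in lymphocytes. Hair follicle keratinocytes had 52.6 CPM in UV and 80.9 CPM in control (ratio 0.650, interval 0.547 to 0.773). T and NK cells had 41.2 CPM in UV and 93.2 CPM in control (0.442), beside the suprabasal marker sums given above for this class. Among suprabasal cells with Ptgs1, 58.8%, 61.2% and 57.3% also had Ptges, against 27.5%, 19.4% and 27.3% of suprabasal cells without Ptgs1, and deeper cells show more of both genes. Among Pi16-led cells with Ptgs2, 32.6%, 35.8% and 38.6% had Ptges, against 44.4%, 45.5% and 57.1% of the few without Ptgs2. Anxa1, the gene of annexin A1, a phospholipid-binding protein known to restrain phospholipase A2, was most like Ptges over the profiles (r 0.94), followed by Fosl1 and Prnp (0.92 and 0.91). The Ptges locus, chr2:30889471-30929863 on the minus strand of GRCm38, holds the processed pseudogene Gm13400, so reads could have been split between them.

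Ptges3 encodes the co-chaperone p23, for which prostaglandin E synthase activity was also described, and it was detected in every class. Over all cells it had 117 CPM in UV, 114 CPM in UV_VD and 152 CPM in control. Basal keratinocytes had 154, 169 and 202 CPM and suprabasal keratinocytes 100, 106 and 135 CPM in the same order of libraries. In the UV library the highest level was in hair matrix cells, the dividing cells that build the hair shaft, at 239 CPM. Myeloid cells had 114 CPM in UV and 172 CPM in control (ratio 0.661, interval 0.539 to 0.815), the single class that passed the call rule for Ptges3 in the UV to control comparison. The Ctss-led cluster was 456 of 591 of these cells in UV and the Ccl8-led cluster 114 of 134 in control, and within the Ccl8-led cluster Ptges3 was 164 CPM in UV, 182 CPM in UV_VD and 179 CPM in control, with no call. Its closest patterns were those of Ncl, Phax and Hnrnpu (r 0.84, 0.84 and 0.83). Ptges3 lies at chr10:128058954-128077272 on the plus strand of GRCm38, and a pseudogene, Ptges3-ps, could share reads with it.

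Ptgis, at chr2:167191805-167240604 on the minus strand of GRCm38, encodes prostacyclin synthase and was nearly confined to fibroblasts in these counts. Fibroblasts held 141 of 149 counts in UV, 94 of 99 in UV_VD and 89 of 94 in control. Keratinocytes, which far outnumbered them, held 1, 5 and 5 counts, and a Ptgis count was found in 0.0278%, 0.0867% and 0.0590% of keratinocytes at medians of 9548, 9718 and 6956 counts per cell. The Pi16-led cluster had 86.3 CPM in UV, 105 CPM in UV_VD and 101 CPM in control, with a count in 32.6%, 41.2% and 36.8% of its cells. The Col1a2-led cluster had 24.4 CPM in UV, 5.74 CPM in UV_VD and 12.2 CPM in control, from 33, 2 and 4 counts. Thus Ptgis and Ptgs2 had their highest levels in the same cluster: of the Pi16-led cells with Ptgs2, 33.7%, 41.6% and 38.6% also had Ptgis.

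As with Ptgs2, the level of Ptgis over all fibroblasts stood beside the unequal shares of the clusters. It was 39.1 CPM in UV and 72.5 CPM in control (ratio 0.538, interval 0.410 to 0.710), and 69.8 CPM in UV_VD and 39.1 CPM in UV (1.79). With clusters weighted to control the ratios were 0.899 and 1.12, and both calls were lost. Over all cells the order turned round, with 2.94 CPM in UV, 1.43 CPM in UV_VD and 1.18 CPM in control, and fibroblasts were 480 of 5451 UV cells and 215 of 9078 control cells. With classes weighted to control the levels over all cells were 0.636 CPM in UV, 1.16 CPM in UV_VD and 1.18 CPM in control. Both calls over all cells thus turned round (0.538 for UV against control and 1.82 for UV_VD against UV). The weighting of classes left the fibroblast clusters in unequal shares. Dcbld2, Fndc1 and Csf1 were most like Ptgis over the profiles (r 0.99, 0.99 and 0.98). Endothelial cells, a known site of prostacyclin synthesis, numbered 77 in UV and held 6 counts (13.2 CPM).

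Ptgds, at chr2:25466709-25470046 on the minus strand of GRCm38, encodes lipocalin-type prostaglandin D synthase, which makes prostaglandin D2 and carries lipids. In the UV library it marked melanocytes, the pigment cells. The 47 UV melanocytes held 5009 of 5211 Ptgds counts (96.1%) at 13152 CPM, and every one of these cells had counts. Their median was 12570 CPM per cell, with quartiles of 7797 and 18924. Ptgds was among the clustering genes and among the leading genes of this cluster, so its level there is a description. No cell of the UV_VD or control library fell in the melanocyte cluster, and those libraries had 20 and 18 Ptgds counts in all.

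Low Ptgds counts were seen in other UV classes. Keratinocytes had 3.65 CPM in UV, 0.287 CPM in UV_VD and 0.172 CPM in control, and a count was found in 3.31%, 0.191% and 0.0944% of them. Fibroblasts had 8.59 CPM in UV, 0 CPM in UV_VD and 0.815 CPM in control, from 31, 0 and 1 counts, and 41.9% of the UV counts came from 1 cell. Both classes passed the call rule as higher in UV. The summed level of 6 melanocyte markers moved with these values: in suprabasal keratinocytes it was 70.2 CPM in UV, 32.1 CPM in UV_VD and 19.1 CPM in control, and in fibroblasts 111, 35.7 and 44.8 CPM, against 79920 CPM in the melanocytes themselves. Its part in the Ptgds counts outside melanocytes was not tested. Pmel, Tyr and Mkrn2 had the patterns most like that of Ptgds (r 0.87, 0.82 and 0.80), the first pair being genes of pigment synthesis.

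Hpgd, the gene of the breakdown enzyme, lies at chr8:56294585-56321043 on the plus strand of GRCm38. It had low counts and stood highest in UV fibroblasts. The UV library had 301 counts, the UV_VD library 39 and the control library 105. Col1a2-led fibroblasts had 91.0 CPM in UV (123 counts, interval 75.6 to 109), 17.2 CPM in UV_VD (6 counts) and 15.3 CPM in control (5 counts). A Hpgd count was found in 30.1% of these cells in UV, 13.0% in UV_VD and 7.69% in control. The UV to control ratio was 5.96, with a wide interval of 2.49 to 18.7 that follows from the few control counts. Pi16-led fibroblasts had 20.8 CPM in UV, 0 CPM in UV_VD and 4.79 CPM in control, from 26, 0 and 4 counts. The same order of UV against control was thus seen in the Col1a2-led and Pi16-led clusters. The remaining fibroblast cluster, led by Crabp1, held 97 cells in UV, 16 in UV_VD and 11 in control. There Hpgd was 6.96 CPM in UV, 0 CPM in UV_VD and 15.4 CPM in control, from 7, 0 and 1 counts, and 5 of the UV counts came from 1 cell.

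Over all fibroblasts Hpgd was 43.2 CPM in UV and 8.15 CPM in control (ratio 5.30, interval 2.81 to 11.3). It was 4.46 CPM in UV_VD and 43.2 CPM in UV (0.103, interval 0.0373 to 0.230). In contrast to Ptgs2 and Ptgis, these calls held with the clusters weighted to control, at 4.76 for UV against control and 0.119 for UV_VD against UV. Macrophages of the Ccl8-led cluster had similar Hpgd levels in the 3 libraries, at 23.4, 19.7 and 20.4 CPM, with overlapping intervals.

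In the epidermis Hpgd was rarer and its direction varied by compartment. Hair follicle keratinocytes were lower in UV, with 4.82 CPM in UV, 4.22 CPM in UV_VD and 11.3 CPM in control (UV to control ratio 0.428, interval 0.246 to 0.732). Follicle cells led by Krt79 had 1.28 CPM in UV, 5.89 CPM in UV_VD and 11.6 CPM in control. Basal keratinocytes had 6.71 CPM in UV, 1.08 CPM in UV_VD and 1.20 CPM in control (UV to control 5.58), from few counts. With the cell with the most counts left out of each library the levels were 5.55 CPM in UV, 0.923 CPM in UV_VD and 1.04 CPM in control, and the 19 counts left in UV and in control were under the minimum of 20 for a call. Of the 23 basal UV counts, 11 lay in the Hist1h1b-led cluster and 10 in a cluster led by Mmp13. The Mmp13-led cluster held 113 UV, 0 UV_VD and 4 control cells. Hist1h1b-led cells had 15.6 CPM in UV and 6.01 CPM in control, with overlapping intervals. Krt14-led cells had 1 count in 249 UV cells and 12 in 1071 control cells, and Il33-led cells 0 in 118 and 5 in 1933. The part of this mix in the basal Hpgd ratio was not tested. Suprabasal keratinocytes had 51, 9 and 17 counts, and 45 of the 51 UV counts came from the BC100530-led cluster, which had 6.11 CPM. Without that cluster the UV suprabasal cells had 6 counts. Mitf and Fam102b were among the genes most like Hpgd over the profiles (r 0.79 and 0.78).

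The receptors for prostaglandin E2 were sparse. Ptger2, the gene of the EP2 receptor (chr14:44988195-45003820, plus strand of GRCm38), had 15 counts in UV, 6 in UV_VD and 12 in control, of which myeloid cells held 11, 5 and 12. That gave 3.39 CPM in UV, 9.86 CPM in UV_VD and 16.3 CPM in control for myeloid cells, too few counts for a fold. The keratinocytes of the 3 libraries held 0, 1 and 0 counts.

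Ptger4, the gene of the EP4 receptor, was detected in most classes. Basal keratinocytes had 28.0 CPM in UV, 36.1 CPM in UV_VD and 30.8 CPM in control, and suprabasal keratinocytes 12.1, 13.6 and 12.4 CPM. Myeloid cells had 26.2 CPM in UV, 63.1 CPM in UV_VD and 44.8 CPM in control. They passed the call rule as lower in UV than in control (ratio 0.584, interval 0.387 to 0.902) and as higher in UV_VD than in UV (2.41, interval 1.55 to 3.66). In UV the Ctss-led cluster was 456 of 591 myeloid cells, at 17.0 CPM, whereas in control the Ccl8-led cluster was 114 of 134. Within the Ccl8-led cluster Ptger4 was 50.1 CPM in UV, 73.8 CPM in UV_VD and 42.5 CPM in control, with overlapping intervals.

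Hair follicle keratinocytes had 10.4 CPM in UV and 22.2 CPM in control (ratio 0.470, interval 0.323 to 0.678). They had 5.16 CPM in UV_VD, lower than in UV (0.494) and than in control (0.232). In the Fst-led follicle cells Ptger4 was 21.5, 9.34 and 82.0 CPM, and the 97 such cells of the control library held 39 of its 75 follicle counts. In the Krt79-led cells, 335 of the 536 control follicle cells, it was 10.9 CPM in UV, 8.83 CPM in UV_VD and 13.0 CPM in control, with overlapping intervals. Its closest patterns were those of D1Ertd622e, Fgd6 and Kitl (r 0.86, 0.81 and 0.81). Ptger4, at chr15:5206661-5244187 on the minus strand of GRCm38, overlaps Ttc33 on the opposite strand, and because the strand of counting was not given in the sources used here, their reads may not be told apart.

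Counting the genes by call showed how they stood against all genes. Over all cells, 3 of 8 genes with enough counts were higher in UV than in control (Ptgis, Ptgds and Hpgd), where 32.2% of all genes were, and 1 was lower (Ptgs1), where 5.43% were. With classes weighted to control the Ptgis ratio was 0.538, lower in UV. That weighting left the fibroblast clusters in unequal shares. Within fibroblasts, with those clusters weighted to control, the Ptgis ratio was 0.899 and was not called. In UV_VD against UV, 1 of 8 was higher (Ptgs1; 3.53% of all genes) and 4 were lower (Ptgs2, Ptgis, Ptgds and Hpgd; 33.6%). In UV_VD against control none was higher (7.93%) and Hpgd was lower (9.76%). These values over all cells stand beside an unequal mix of classes in the 3 libraries.

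**Figure D4:**
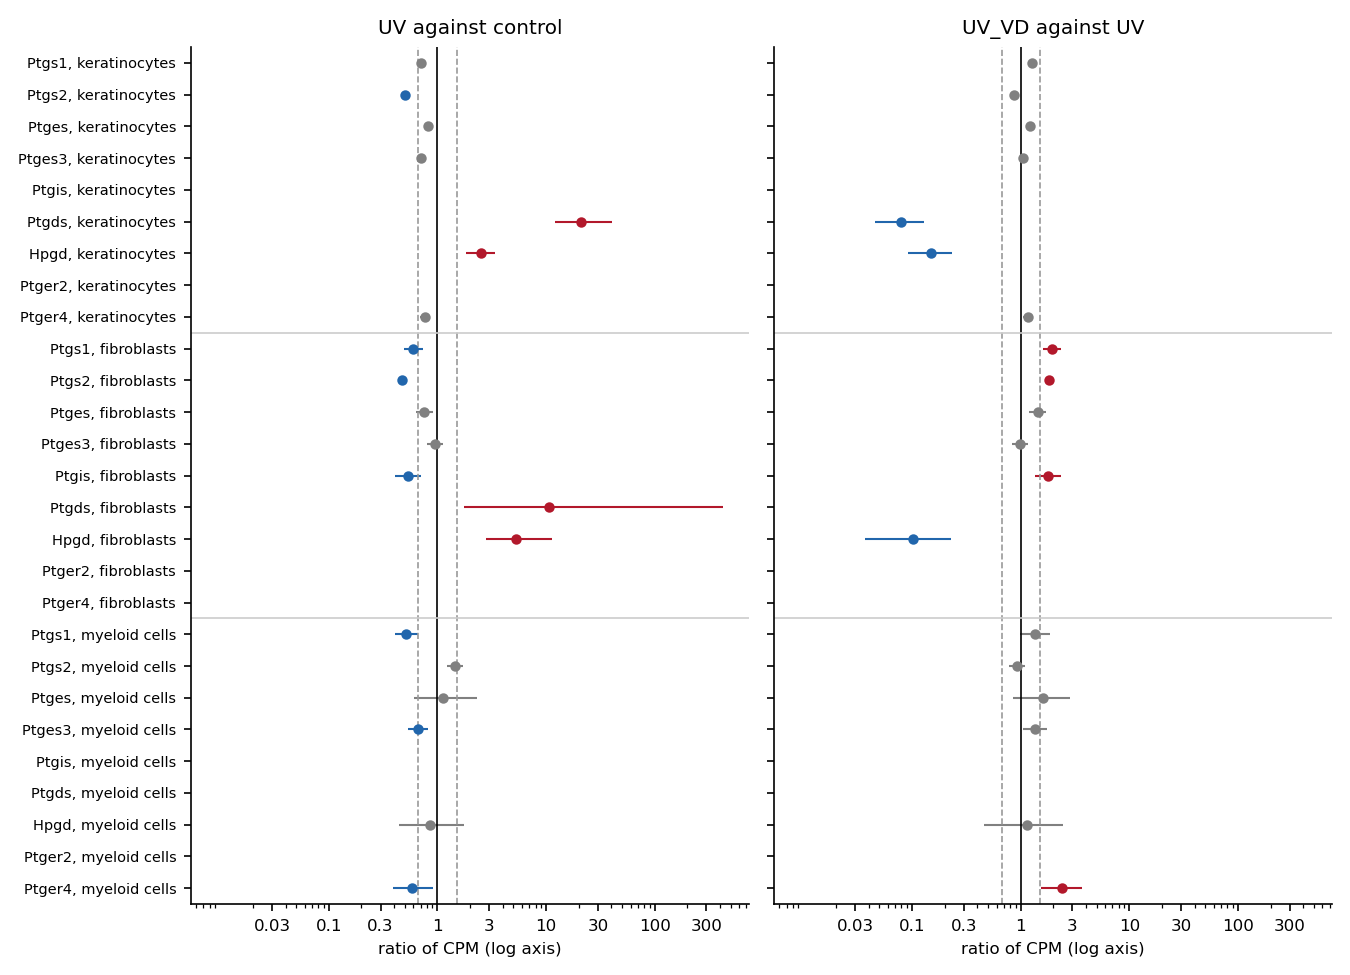
Ratios of CPM (log axis) for UV against control (left) and UV_VD against UV (right) in keratinocytes, fibroblasts and myeloid cells. Bars are exact 95% intervals for counting error, dashed lines mark 1.5-fold, red points passed the call rule as higher, blue as lower and grey did not, and a row without a point had under 20 counts in both libraries or a count of 0 in 1 of them. Hpgd in fibroblasts lies at 5.30 on the left and 0.103 on the right, and Ptges and Ptges3 in keratinocytes lie inside the dashed lines on both sides.

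Within keratinocytes, 2 of 7 genes were higher in UV than in control (Ptgds and Hpgd; 15.5% of all genes) and 1 was lower (Ptgs2; 9.04%). In UV_VD against UV keratinocytes none was higher (3.46%) and 2 were lower (Ptgds and Hpgd; 14.6%). In UV_VD against control keratinocytes none of 6 was higher (7.64%) and 2 were lower (Ptgs2 and Hpgd; 10.4%). With the keratinocyte subclasses weighted to control, Ptgs2 was 54.8 CPM in UV, 48.5 CPM in UV_VD and 54.1 CPM in control, within 1.5-fold. Within fibroblasts, 2 of 7 were higher in UV than in control (Ptgds and Hpgd; 21.1%) and 3 were lower (Ptgs1, Ptgs2 and Ptgis; 6.4%). The median log2 ratio of the 7 genes there was -0.37, against 0.17 over all genes. In UV_VD against UV fibroblasts the same 3 genes were higher (9.95%) and the same 2 lower (19.1%). The opposite directions share the UV library and are not 2 independent observations. With the fibroblast clusters weighted to control, 1 gene in place of 3 was lower in UV than in control. Ptgs2 and Ptgis then had ratios of 0.863 and 0.899, and of 1.05 and 1.12 in UV_VD against UV. The median log2 ratio was not weighted in this way. Within myeloid cells none of 6 was higher in UV than in control (18.3%) and 3 were lower (Ptgs1, Ptges3 and Ptger4; 7.21%). In UV_VD against UV myeloid cells Ptger4 was higher (8.09%) and none was lower (11.8%). T and NK cells had none of 4 higher in UV than in control (18.7%) and 3 lower (Ptgs1, Ptgs2 and Ptges; 18.8%), and 2 higher in UV_VD than in UV (Ptgs1 and Ptges; 17.5%).

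In basal keratinocytes Hpgd was higher (16.1% of all genes) and Ptgs1 lower (6.89%) in UV against control, and in UV_VD against UV Ptgs1 was higher (7.42%) and Hpgd lower (9.87%). In suprabasal keratinocytes Ptgds and Hpgd were higher in UV than in control (10.5%) and none of 7 was lower (12.8%). There 3 were lower in UV_VD than in UV (Ptgs2, Ptgds and Hpgd; 8.26%), and Ptgs2 was lower in UV_VD than in control (7.74%). In hair follicle keratinocytes none of 6 was higher in UV than in control (15.1%) and 4 were lower (Ptgs1, Ptges, Hpgd and Ptger4; 8.92%). Of the same 6, Ptgs1 was higher (4.67%) and Ptgs2 and Ptger4 lower (14.7%) in UV_VD than in UV, and Hpgd and Ptger4 were lower in UV_VD than in control (9.62%). In the Pi16-led fibroblasts Hpgd was higher (13.9%) and Ptgs1 lower (9.95%) in UV than in control, while Ptgs1 was higher (9.28%) and Hpgd lower (12.9%) in UV_VD than in UV. In the Col1a2-led fibroblasts Ptgds and Hpgd were higher (11.2%) and Ptgs2 lower (3.65%) in UV than in control. In the Il33-led basal cells Ptgs2 was higher in UV than in control (4.97%) and lower in UV_VD than in UV (2.6%). In the Ccl8-led macrophages Ptgs1 was lower in UV than in control (5.64%), and Ptgs1 and Ptgs2 were higher in UV_VD than in UV (5.25%) and Ptgs2 also in UV_VD against control (9.33%).

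Other single clusters and the sebocytes gave 9 further calls. In the Krt14-led basal cells Ptgs1 was at 63.2 CPM in UV and 113 CPM in control, a call as lower (5.02% of all genes), and at 109 CPM in UV_VD and 63.2 CPM in UV, a call as higher (6.07%). In the Alox12e-led suprabasal cells Ptgs2 was lower in UV than in control (7.2%) and higher in UV_VD than in UV (4.2%), with the values given above. In the Adh6a-led suprabasal cells Ptgds had 21 counts in UV, 1 in UV_VD and 9 in control, so that it was higher in UV than in control (7.19%) and lower in UV_VD than in UV (4.96%). There Ptgs2 was at 3.70 CPM in UV_VD and 5.72 CPM in control, a call as lower (4.98%). Sebocytes, the lipid-filled cells of the sebaceous gland, had 59.3 CPM of Ptgs2 in UV and 12.3 CPM in control, from 66 and 5 counts, a call as higher (8.69%), and 54.5% of the UV counts came from 1 cell. Their Ptgs1 was at 40.4 CPM in UV and 81.0 CPM in control, a call as lower (3.77%).

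A further 48 genes of the wider arachidonic acid pathway were listed by role, and 45 were in the tables. In UV against control, 7 of the 33 with enough counts in keratinocytes were higher (15.5% of all genes) and 2 lower (9.04%). Among them Akr1c18, an aldo-keto reductase known to reduce progesterone and prostaglandins, was at 8.98 CPM in UV and 0.252 CPM in control (ratio 35.7, interval 22.5 to 60.0). In fibroblasts 6 of 24 were higher (21.1% of all genes) and 3 lower (6.4%). Akr1b8, another aldo-keto reductase, was at 73.4 CPM in UV and 5.70 CPM in control (12.9), and the prostaglandin transporter gene Slco2a1 at 69.0 CPM in UV and 34.2 CPM in control (2.01). Akr1b3, whose product can make prostaglandin F2 alpha, was at 28.3 CPM in UV and 10.6 CPM in control (2.67), Cbr1, a carbonyl reductase, at 16.3 CPM and 6.52 CPM (2.51), and the leukotriene A4 hydrolase gene Lta4h at 52.1 CPM and 25.3 CPM (2.06). The haematopoietic prostaglandin D synthase gene Hpgds was lower, at 14.1 CPM in UV and 26.9 CPM in control (0.525), as was the epidermal lipoxygenase gene Alox12b at 24.9 CPM in UV and 44.0 CPM in control (0.566). In control keratinocytes Hpgds was at 75.8 CPM and Alox12b at 160 CPM. The suprabasal marker sums given above for fibroblasts were also lower in UV than in control, and their part in these values was not tested. The fibroblast clusters differed in share between these libraries as given above. With the clusters weighted to control the UV to control ratios were 4.84 for Akr1b8, 3.13 for Slco2a1, 1.92 for Akr1b3, 1.83 for Cbr1, 1.61 for Lta4h, 0.471 for Hpgds and 0.398 for Alox12b, in the same directions.

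In myeloid cells 4 of 21 pathway genes were higher in UV than in control (18.3% of all genes) and 2 were lower (7.21%). The leukotriene receptor genes Cysltr1 (46.5 CPM in UV, 21.7 CPM in control, ratio 2.14) and Ltb4r1 (17.2 and 5.43 CPM, 3.18) were higher. The leukotriene C4 synthase gene Ltc4s (60.4 CPM in UV, 129 CPM in control, 0.468) and the carbonyl reductase gene Cbr2 (453 and 842 CPM, 0.538) were lower. The Ctss-led and Ccl8-led clusters differed in share between these libraries as given above. Within the Ccl8-led cluster Cysltr1 was at 101 CPM in UV and 27.2 CPM in control, but Ltc4s was at 178 CPM in UV and 158 CPM in control and Cbr2 at 1366 CPM in UV and 1051 CPM in control, the opposite direction to the whole class. Of Ltb4r1 the cluster held 1 count in each of these libraries.

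In UV_VD against UV, none of 32 pathway genes in keratinocytes was higher (3.46% of all genes) and 8 were lower (14.6%). Akr1c18 was at 0.620 CPM in UV_VD and 8.98 CPM in UV (ratio 0.0690), and the phospholipase gene Pla2g4e at 0.997 CPM in UV_VD and 7.76 CPM in UV (0.129). In fibroblasts 4 of 24 were higher (9.95%) and 8 lower (19.1%). Akr1b8 was at 9.66 CPM in UV_VD and 73.4 CPM in UV (0.132), and Pla2g2e, a secreted phospholipase A2 gene, at 1.49 CPM in UV_VD and 22.2 CPM in UV (2 and 80 counts, 0.0670). Akr1b3 was at 13.4 CPM in UV_VD and 28.3 CPM in UV (0.473), while Akr1c18 in fibroblasts was higher, at 192 CPM in UV_VD and 115 CPM in UV (1.67). The epidermal lipoxygenase genes Alox12b (2.35) and Alox12e (1.74) were also higher in UV_VD fibroblasts, beside the suprabasal marker sums given above. With the fibroblast clusters weighted to control the ratios were 0.364 for Akr1b8, 0.117 for Pla2g2e, 0.650 for Akr1b3, 3.31 for Alox12b and 1.53 for Alox12e, while that of Akr1c18 turned round to 0.905. In myeloid cells 4 of 21 were higher (8.09%) and none lower (11.8%), with Ltc4s at 201 CPM in UV_VD and 60.4 CPM in UV (3.33), Akr1b8 at 82.8 and 35.4 CPM (2.34), Alox12e at 84.8 and 47.4 CPM (1.79) and Cbr2 at 775 and 453 CPM (1.71). Alox12e is also the leading gene of a suprabasal cluster, and the part of suprabasal transcripts in its myeloid level was not tested. The Ccl8-led cluster was 76 of 90 myeloid cells in UV_VD and 135 of 591 in UV. Within it Ltc4s was at 251 CPM in UV_VD and 178 CPM in UV, Akr1b8 at 103 and 101 CPM and Alox12e at 73.8 CPM in UV_VD (30 counts, against 18 counts in UV), while Cbr2 was at 954 CPM in UV_VD and 1366 CPM in UV, the opposite direction to the whole class.

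In UV_VD against control, 5 of 33 pathway genes in keratinocytes were higher (7.64% of all genes) and 7 lower (10.4%). In fibroblasts 2 of 17 were higher (10.4%) and 3 lower (4.75%), and in myeloid cells 4 of 15 were higher (8.65%) and none lower (5.06%). Alox12b in keratinocytes was at 252 CPM in UV_VD and 160 CPM in control (1.58). In keratinocytes Cbr2 (0.584) and Ptgfrn (0.660) were lower in UV_VD. There Fam213b, Pla2g2f, Hpgds and Aloxe3 had ratios of 1.39, 1.34, 0.719 and 1.36 and did not pass. Suprabasal cells were 77.2% of keratinocytes in UV_VD and 56.3% in control, and basal cells 17.6% and 37.4%. The part of this mix in the keratinocyte values was not tested. In fibroblasts Fam213b (1.74) and Slco2a1 (1.65) were higher and Mgll (0.612) lower, and in myeloid cells Ltc4s (1.56) was higher and Ptgr1 (0.741) did not pass.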

How the data were processed

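Whole-skin cells of 3 mouse libraries were dissociated and made into single-cell RNA libraries with Singleron GEXSCOPE kits, per the labels' protocols. The deposited tables hold whole counts for each gene in each barcode, and FastQC, fastp, STAR and featureCounts made them, per the submitters' processing notes. Those notes name GRCh38, although about 98% of the listed symbols are mouse genes. Whether the authors collapsed reads to molecules or counted by strand was not given in the sources used here, so intervals cover counting error only.

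Cells with at least 200 genes and at most 20% mitochondrial counts were kept. They were scaled to 10000 counts, and 2000 genes, 30 components and 15 neighbours gave 31 Leiden clusters at resolution 1. The clusters were named from marker lists. A keratinocyte cluster whose best keratinocyte list had a mean log2 fold under 0.5 was named suprabasal. Python 3.11.15, scanpy 1.11.5, leidenalg 0.10.2, scikit-learn 1.9.0, numpy 2.4.6, scipy 1.17.1, pandas 2.3.3 and matplotlib 3.10.9 were used. Scrublet called 0 doublets in each library and so did not work as a doublet filter.

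Counts of each gene were summed by class and library and divided by all counts of that class to give CPM. Ratios carry exact conditional binomial intervals at 95%, and log2 ratios use a pseudocount of 10 CPM. Shares of cells carry no test and are given as counted or thinned to 2500 counts. The calculation was tested on simulated data. All 9 genes are named. Of the other pathway genes, up to 12 per comparison are named, those of largest absolute log2 ratio whose higher library has 50 or more counts. For each of the 9 genes with at least 200 counts, the 3 genes most correlated with it over profiles are named, except 1 that is not reported here. The genes and lists were chosen with earlier results of these data known.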

Additional observations from a re-analysis of the deposited data

Results flagged for a closer look

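Some ratios had opposite directions in different classes under the same pair of libraries. None of these differences between classes was tested, because each group has 1 library.

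Hpgd in UV against control had a ratio of 5.58 in basal keratinocytes, 5.38 in suprabasal keratinocytes and 5.3 in fibroblasts, against 0.428 in hair follicle keratinocytes. The suprabasal value rests on the BC100530-led cluster, without which the UV and control counts were 6 and 17. The basal value rests mostly on the Hist1h1b-led and Mmp13-led clusters, which held 11 and 10 of the 23 UV counts. The Krt14-led and Il33-led basal clusters had 1 and 0 counts in UV and 12 and 5 in control.

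Ptger4 in UV_VD against UV had a ratio of 2.41 in myeloid cells and 0.494 in hair follicle keratinocytes.

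Ptgs2 in UV_VD against UV had a ratio of 1.83 in fibroblasts, 0.605 in suprabasal keratinocytes and 0.576 in hair follicle keratinocytes. With the fibroblast clusters weighted to control the fibroblast ratio was 1.05, with no call, and the suprabasal clusters did not share 1 direction, as given above. The follicle value rests on 17 and 69 counts. The Fst-led cluster was 258 of 672 follicle cells in UV and 47 of 300 in UV_VD. Within it Ptgs2 was 36.3 CPM in UV and 46.7 CPM in UV_VD (49 and 10 counts), with overlapping intervals. The part of this mix in the follicle value was not tested.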

How the results depend on the processing

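No paired analysis was possible because each group has 1 library and no replicate numbers. The settings below were run on 50 called ratios. These lay in all cells, all keratinocytes, basal and suprabasal keratinocytes, fibroblasts, Pi16-led fibroblasts, myeloid cells, and T and NK cells. Calls in hair follicle keratinocytes, sebocytes and other single clusters were not put through them. All 50 kept their call at a mitochondrial limit of 10%. They also kept it with a pseudocount of 1 CPM and with no minimum of counts, but neither setting could remove a call. The call rule does not use the pseudocount, and dropping the minimum can only add calls. Scaled without mitochondrial and ribosomal counts, 48 kept it, and 46 did with each cell weighted the same. Without the 5% of cells with the highest doublet scores 45 kept it, and without the top cell 46. Of 46 called ratios in classes formed again, 43 kept it with each cell assigned on its own and 44 at resolution 0.5. The log2 ratio of Ptgs2 over all cells in UV against control was 0.44, and became 0.36 with each cell weighted the same. In basal keratinocytes it was 0.03, and became -0.10 with each cell weighted the same, -0.46 with each cell assigned on its own and -0.70, a call, at resolution 0.5. In fibroblasts the 2 genes higher in UV than in control became 1, and the 2 lower in UV_VD than in UV became 1. This happened with each cell assigned on its own, without the highest doublet scores and without the top cell. It also happened without the 39 cells with 1% of counts from other lineages, a setting chosen after seeing the data. Ptgds was the call lost; without the top cell 18 UV and 0 control counts remained, under the minimum of 20. With keratinocyte subclasses weighted to control, 5 of 7 calls were kept and 1 was reversed in direction. Ptgs2 in keratinocytes was then at 0.017 in UV against control and 0 genes were lower.

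Other alternatives were chosen after seeing the data. Clustering without the 9 genes kept 46 of 46 calls, and leaving out the BC100530-led cluster 21 of 23 (1 reversed). Weighting to control kept 5 of 10 with classes (3 reversed) and 6 of 10 with fibroblast clusters. Without the BC100530-led cluster, Ptgs2 over all cells in UV against control was 0.63 and was called, and Hpgd in suprabasal keratinocytes was -0.0072. With classes weighted to control, Ptgs2 over all cells was -0.29 in UV against control and 0.14 in UV_VD against UV. Ptgis was -0.072 and 0.069, and its calls turned round (ratios 0.538 and 1.82). The weighting of classes left the fibroblast clusters in unequal shares. With fibroblast clusters weighted to control, 1 gene in place of 3 was lower in UV than in control. The same weighting of the pathway genes turned Akr1c18 in UV_VD against UV round, with a ratio of 0.905. Depth limits Ptger2, with 6 to 15 counts per library, and Hpgd in UV_VD and control.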
